A study of Mus musculus with 9 samples.

Results

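The AP-1 transcription factors examined here are Fos, Fosb, Fosl1, Fosl2, Jun, Junb, Jund and Atf3. They were taken by gene symbol from a deposited expression table, and 8 of its 37980 rows matched. The samples are stem cells of the hair follicle, from male mice of the strain C57BL/6J aged 3, 19 and 24 months, for which the labels name no treatment or transgene, and each age has 3 of the 9 libraries. Back and belly skin was the source, and sorting kept cells that carried much CD49f (integrin alpha 6, which anchors cells to the basement membrane) and surface CD34, a combination that marks the bulge, the part of the follicle where its stem cells rest. Whether libraries of 1 age stem from different mice is not stated. The p-values therefore rest on the spread between libraries, part or all of which may be technical, and in limma also on that of other genes. The question is which AP-1 messages differ between young and old stem cells.

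AP-1 is a dimer of basic leucine zipper proteins, usually 1 Fos family protein with 1 Jun family protein, and it binds the DNA letters TGACTCA. Jun proteins can also pair with each other, whereas Fos proteins need a partner, and ATF proteins such as Atf3 prefer sites of the related CRE type. Fos, Fosb, Jun, Junb and Atf3 are immediate early genes, whose short-lived messages rise soon after growth factors, wounding, stress or the enzymatic release of cells from tissue, while Jund and Fosl2 messages are steadier in many cells. In the epidermis, Jun and Fos proteins act in proliferation, wound repair and keratinocyte differentiation.

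Values are FPKM, the fragments mapped to a gene corrected for gene length and for the library's mapped total, so levels of different genes can be set side by side. No read counts were used and the depth is unknown, so no counting interval is given. The sort markers were abundant in every library, with Cd34 between 403 and 632 FPKM and Itga6, which encodes CD49f, between 72.7 and 117 FPKM. Krt15, another bulge marker, was listed at 0 in all 9 libraries, and exact zeros in this table can be failed estimates. In the labels, the 3-month libraries are numbered 6058 to 6060 and the older ones 6067 to 6072. The labels do not say what these numbers stand for. Any difference in handling that follows them cannot be told apart from age in comparisons with 3 months. The 19-month libraries (6067 to 6069) and the 24-month libraries (6070 to 6072) are consecutive but also form separate blocks, so the same holds between these ages.

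Promoters are shown because several members varied together over libraries, and are taken from RefSeq (GRCm38.p6, another build than the NCBIM37 named for the expression table). Shown are the 120 bases just before the RefSeq transcription start of the Fos and Jun family members whose RefSeq start lies within 30 bases of the GENCODE gene start, and that hold a motif searched for. The lines run 5′ to 3′ on the gene's strand, with motif matches in capitals.
Fos, chr12:85473770-85473889 (+): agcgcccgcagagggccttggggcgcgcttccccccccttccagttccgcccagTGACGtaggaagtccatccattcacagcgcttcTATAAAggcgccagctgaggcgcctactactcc
Fosb, chr7:19310046-19310165 (-): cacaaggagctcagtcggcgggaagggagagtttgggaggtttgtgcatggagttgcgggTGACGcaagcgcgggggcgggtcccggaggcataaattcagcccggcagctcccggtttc
Jun, chr4:95052223-95052342 (-): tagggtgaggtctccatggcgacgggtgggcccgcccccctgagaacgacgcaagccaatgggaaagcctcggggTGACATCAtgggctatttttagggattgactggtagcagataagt
Junb, chr8:84978749-84978868 (-): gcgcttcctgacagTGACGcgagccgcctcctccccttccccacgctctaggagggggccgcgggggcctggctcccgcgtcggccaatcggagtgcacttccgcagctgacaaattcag
The motifs were chosen after these sequences had been read. The letters TGACG, the core of the cyclic AMP response element bound by CREB and ATF proteins, stood 66 to 62 bases before the start in Fos, 60 to 56 before it in Fosb and 106 to 102 before it in Junb. Outside the lines shown, it also stood at bases -129 to -125 from the start in Fos and, on the other strand, 7 to 3 before the RefSeq start of Atf3. Of 32851 RefSeq promoter windows, 17.8% held TGACG on either strand in the 250 bases before the start. The Jun promoter held TGACATCA, a known binding site of Jun with Atf2, 45 to 38 bases before the start, and 2.93% of windows held it on either strand. Fos also had a TATAAA box 33 to 28 bases before the start, which 7.59% of windows held on the gene's strand. TGACTCA (4.46% of windows), TGACGTCA, which contains TGACG (1.55%), and the CArG box bound by SRF (1.47%) were searched on both strands. None matched in the 250 bases before the start of the 7 members with a window. Sites farther upstream were not searched, so the absence of a match does not mean that Fos or another member lacks an SRF site. For Fosl2, Jund and Atf3, the RefSeq start used lies 671, 1210 and 34706 bases from the GENCODE gene start. A match is a description of the letters and says nothing about binding in these cells.

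The test was limma on log2(FPKM + 1) over 11509 protein-coding genes with all 9 libraries in 1 model, two-sided. For each gene, limma draws the variance toward that of genes of similar level, and the SEs, intervals and p-values given here use this variance. For members that vary more between libraries than such genes, SEs and intervals are therefore narrower than their own spread alone would give. Fos, Fosb, Junb, Jund and Atf3 are among these members. The threshold was 0.05 after Benjamini-Hochberg adjustment. An earlier analysis of these data had already found that restricting the fit to protein-coding rows calls more genes. The fit of all 14275 rows above the same minimum is therefore given beside each call, and it called none of the AP-1 genes at any comparison. The added 1 makes the log2 changes of low genes too small, and both comparisons with 3 months share the same 3 libraries. Of the 8 members, 7 passed the minimum of 1 FPKM in 3 libraries, and Fosl1 did not.

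Fos, the founding partner of Jun in AP-1, was the most abundant member at every age and rose at 24 against 3 months. The 3-month libraries held 39.9, 117 and 75.8 FPKM, the 19-month libraries 233, 88.7 and 125, and the 24-month libraries 468, 305 and 183. Every 24-month library stood above every 3-month library, while the 19-month libraries overlapped both other ages. Mean Fos was 77.6 ± 38.6 FPKM at 3 months, 149 ± 75.2 at 19 months and 319 ± 143 at 24 months (SD, n = 3 each). The log2 change at 24 against 3 months was 2.05 ± 0.39 (limma SE, adjusted p = 0.0104), a 4.15-fold difference on the FPKM + 1 scale. Within ages, the SD of Fos on the log2 scale was 0.72, larger than in 100% of the 200 genes nearest in mean level. This SE is thus smaller than the spread of Fos alone would give. The call held in each of the 9 fits that left out 1 library (highest limma adjusted p = 0.0407, without 24-month replicate 2). It was not kept in the fit of all rows (limma adjusted p = 0.113) or with a robust prior variance (limma adjusted p = 0.107), under which the estimate itself was unchanged. At 19 against 3 months the log2 difference was 0.94 ± 0.39 (limma adjusted p = 0.249) and at 24 against 19 months 1.11 ± 0.39 (limma adjusted p = 0.218), neither past the threshold. In a test for a difference at any age, Fos passed with a limma adjusted p of 0.0201 in protein-coding genes and not in all rows (0.184).

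Fosb, a Fos relative with the same rapid induction, was far lower than Fos. It held 4.96, 10.8 and 8.25 FPKM at 3 months, 16.7, 7.21 and 6.63 at 19 months, and 27.4, 13.4 and 7.30 at 24 months. All 3 ages overlapped, and the highest value stood in the same 24-month library as the highest Fos. The log2 difference at 24 against 3 months was 0.79 with a 95% interval of -0.03 to 1.62 (limma adjusted p = 0.25). The difference at 19 against 3 months was 0.26 (-0.57 to 1.08), a direction that turned to -0.13 without 19-month replicate 1.

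Fosl2, also called Fra-2, a Fos family protein without the strong activation domain of Fos, was the steadiest member. It held 11.5, 14.9 and 17.7 FPKM at 3 months, 11.9, 14.7 and 14.0 at 19 months, and 13.0, 17.4 and 17.3 at 24 months. The highest library was 1.54-fold above the lowest, against 11.7-fold for Fos. The log2 difference at 24 against 3 months was 0.11 with a 95% interval of -0.26 to 0.49, and no comparison passed the test. Fosl1, which encodes Fra-1 and is induced in migrating and transformed keratinocytes, was listed at 0 in 5 of the 9 libraries and at no more than 0.0511 FPKM in the others, and was not fitted. Its exons overlap those of Ccdc85b on the opposite strand.

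**Figure D1:**
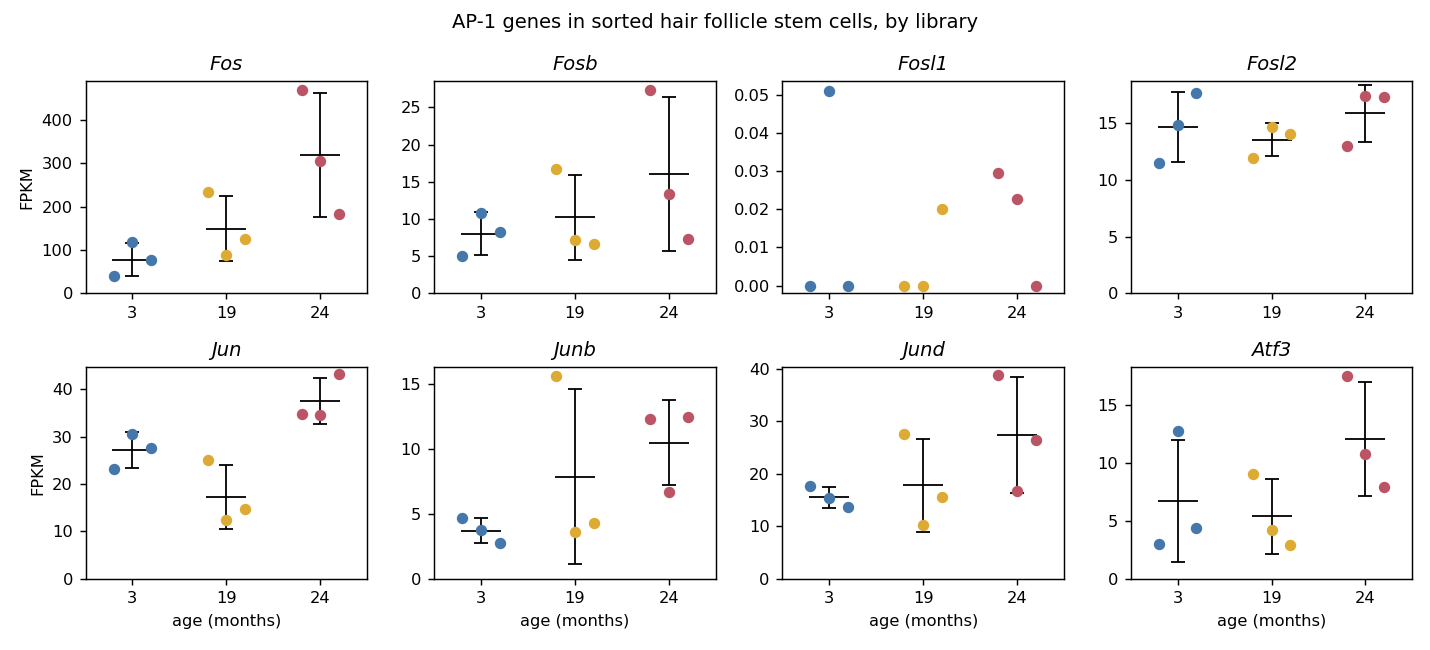
FPKM of the 8 AP-1 genes (y axis, linear and separate for each gene) in each library by age in months (x axis), in order of replicate number, with horizontal lines for the mean and bars for the SD over 3 libraries (none drawn for Fosl1, mostly listed at 0). The 24-month libraries of Fos, Jun and Junb lie above all 3-month libraries, whereas Fosl2 stays between 11.5 and 17.7 FPKM.

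Jun, which pairs with itself as well as with Fos proteins, had its lowest mean at 19 months and its highest at 24 months, and rose between these ages. It held 23.1, 30.6 and 27.7 FPKM at 3 months, 25.0, 12.4 and 14.6 at 19 months, and 34.8, 34.5 and 43.1 at 24 months. The 24-month libraries stood above all others, and 19-month replicate 1 fell within the range at 3 months. Mean Jun was 27.1 ± 3.79 FPKM in the youngest mice, 17.3 ± 6.73 at 19 months and 37.5 ± 4.89 at 24 months (SD, n = 3 each). The log2 change at 24 against 19 months was 1.12 ± 0.21 (SE, limma adjusted p = 0.0224). That call was not kept in the fit of all rows (limma adjusted p = 0.227), and it was lost without 19-month replicates 2 or 3 (0.113 and 0.0942) and without 24-month replicates 3 or 4 (0.0501 and 0.122). At 24 against 3 months Jun differed by 0.45 ± 0.21 (limma adjusted p = 0.221), though its groups did not overlap. The difference at 19 against 3 months was -0.67 ± 0.21 (limma adjusted p = 0.121), and it passed the threshold only without 19-month replicate 1 (limma adjusted p = 0.0102). Jun also passed the test for a difference at any age (limma adjusted p = 0.0182), and not in the fit of all rows (0.148).

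Junb, which can oppose Jun at some promoters and restrains inflammation in mouse epidermis, was the lowest Jun family member. It held 4.68, 3.72 and 2.74 FPKM at 3 months, 15.6, 3.62 and 4.33 at 19 months, and 12.3, 6.71 and 12.5 at 24 months. The 24-month libraries stood above all 3-month libraries, and the single highest value was 19-month replicate 1. The log2 difference at 24 against 3 months was 1.26 ± 0.37 and did not pass the test (limma adjusted p = 0.0712). It passed without 19-month replicate 1 (0.00718) and in a fit of the 3- and 24-month libraries alone (0.00523). Its difference of 0.68 at 19 against 3 months became 0.09 without 19-month replicate 1.

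Jund, the Jun family member known for steady expression and for opposing proliferation in fibroblasts, held 17.7, 15.3 and 13.7 FPKM at 3 months. It held 27.6, 10.2 and 15.6 FPKM at 19 months and 38.9, 16.7 and 26.5 at 24 months. All ages overlapped, and the 2 highest values stood in 24-month replicate 2 and 19-month replicate 1. The log2 difference at 24 against 3 months was 0.71 with a 95% interval of 0.07 to 1.34 (limma adjusted p = 0.184). Junb and Jund have transcripts of 62.6% and 67.1% GC, richer than those of 99.1% and 99.9% of fitted genes. Those 2 libraries also stood apart in GC. Over genes, the correlation of a library's deviation from the gene means with transcript GC was 0.289 in 19-month replicate 1 and 0.308 in 24-month replicate 2, against -0.164 to 0.068 in the other libraries. After a per-library GC correction chosen after seeing the data, the limma adjusted p at 24 against 3 months was 0.0549 for Junb and 0.11 for Jund, and Fos and Jun kept their calls (0.0154 at 24 against 3 months and 0.0263 at 24 against 19 months). Whether strand was used in counting is not stated in these sources. In GENCODE, the exons of Jun overlap Junos, those of Junb overlap Prdx2 and those of Jund overlap Gm11175, all on the opposite strand, so reads of these pairs may not be separated.

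Atf3, a stress-induced factor that pairs with Jun proteins and often represses its targets, was among the most variable members. It held 3.01, 12.7 and 4.43 FPKM at 3 months, 9.03, 4.20 and 2.96 at 19 months, and 17.5, 10.8 and 7.93 at 24 months. All ages overlapped: 3-month replicate 2 reached the level of the 24-month libraries. The log2 difference was 0.90 with a 95% interval of 0.04 to 1.76 at 24 against 3 months (limma adjusted p = 0.212) and 1.08 (0.22 to 1.94) at 24 against 19 months (limma adjusted p = 0.261). The value at 19 against 3 months was -0.18, and 0.34 without 3-month replicate 2.

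Counted over the 7 fitted members, 1 passed at 24 against 3 months and 1 at 24 against 19 months, both higher at 24 months. Between 19 and 3 months limma called 0 of 7, with 2 at an unadjusted p under 0.05, beside 15.7% of all genes. Of all 11509 genes, 1.56% were called at 19 against 3 months, 3.84% at 24 against 3 months and 0.93% at 24 against 19 months. Those called in the higher direction alone made up 0.6%, 1.5% and 0.712% in the same order. The test for a difference at any age called 2 of the 7 members and 4.54% of all genes. With all rows fitted, 0 members were called, beside 0.28%, 0.203% and 0.049% of rows. At 24 against 3 months all 7 members had estimates above 0, with a median of 0.79 against -0.00 over all genes, and 5 had an unadjusted p under 0.05, beside 21.6% of all genes. At 24 against 19 months all 7 were above 0, with a median of 0.62 against -0.02 over all genes. Of these members 3 had an unadjusted p under 0.05, beside 12.8% of all genes. Both comparisons use the same 24-month libraries, so their directions are not independent. At 19 against 3 months 4 of 7 were above 0 and the median was 0.08 against 0.01. Every 24-month library exceeded every 3-month library in 3 of 7 members (10.6% of all genes) and every 19-month library in 1 of 7 (7.94%). Every 19-month library exceeded every 3-month library in 0 of 7 (11%).

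The order of the members by mean FPKM over 9 libraries was Fos (182), Jun (27.3), Jund (20.2), Fosl2 (14.7), Fosb (11.4), Atf3 (8.07) and Junb (7.35). Fos exceeded Jun in each of the 9 libraries. All neighbours in this order overlapped in their ranges over the libraries, Fos and Jun included, since the lowest Fos value (39.9) lay below the highest Jun value (43.1). Fos made up 70.8 to 82.0% of the summed FPKM of Fos, Fosb, Fosl1 and Fosl2 at 3 months, 80.2 to 89.1% at 19 months and 88.2 to 92.1% at 24 months. The share of Fosl2 ran the other way, from 10.4 to 20.4% at 3 months to 2.55 to 8.33% at 24 months. Summed Fos family FPKM was 1.24 to 2.88 times the Jun family sum at 3 months, 3.84 to 4.22 times at 19 months and 2.53 to 5.92 times at 24 months. All 3-month libraries were thus below the 19-month ones in this ratio, and 24-month replicate 4 fell within the 3-month range. Within the Jun family, Jun itself held 50.8 to 62.7% at 3 months, 36.7 to 47.2% at 19 months and 40.5 to 59.6% at 24 months. These shares and ratios are descriptions with no test.

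**Figure D2:**
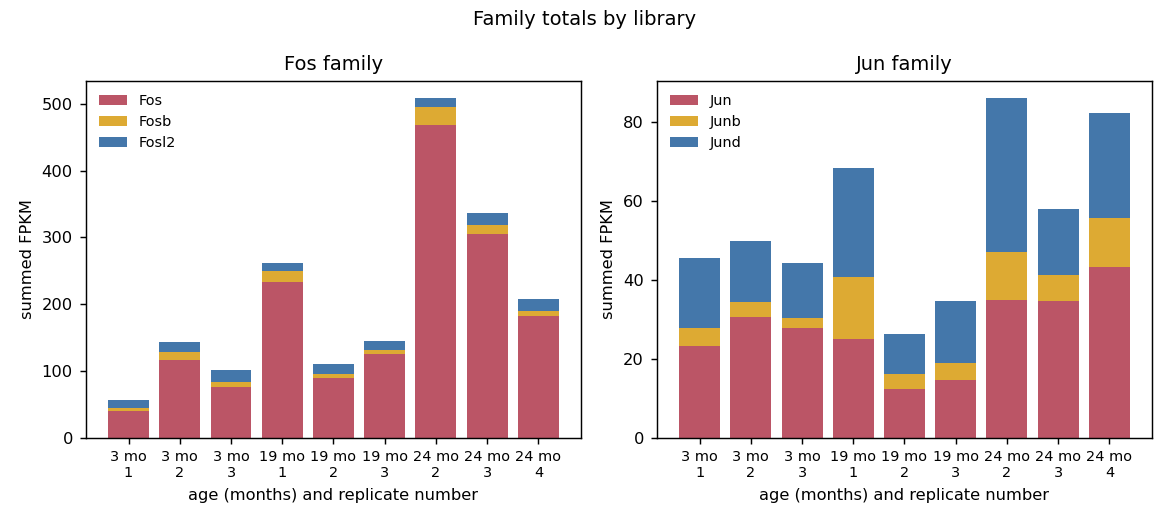
Summed FPKM (y axis, linear) of Fos, Fosb and Fosl2 (left) and of Jun, Junb and Jund (right) in each of the 9 libraries (x axis), stacked by gene. Fos takes 70.8 to 92.1% of the left-hand family, and the tallest bars of both families stand in 24-month replicate 2.

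Libraries of the same age differed more in most AP-1 genes than in a typical gene. The SD within an age on the log2(FPKM + 1) scale was 0.72 for Fos, 0.71 for Fosb, 0.67 for Junb, 0.53 for Jund and 0.73 for Atf3, against a median of 0.21 over 11509 genes. More than 98% of fitted genes had a smaller SD than any of these 5 members, from 98.3% for Jund to 99.5% for Atf3. Jun (0.33) exceeded 87.7% of genes and Fosl2 (0.23) exceeded 60.3%. Against the 200 genes nearest in mean level, Fos, Junb, Jund and Atf3 had a larger SD than 100% of them, Fosb than 98.5%, Jun than 96.5% and Fosl2 than 67.5%. As the cells were measured in bulk, fewer cells of a kind and less RNA per cell cannot be told apart.

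**Figure D3:**
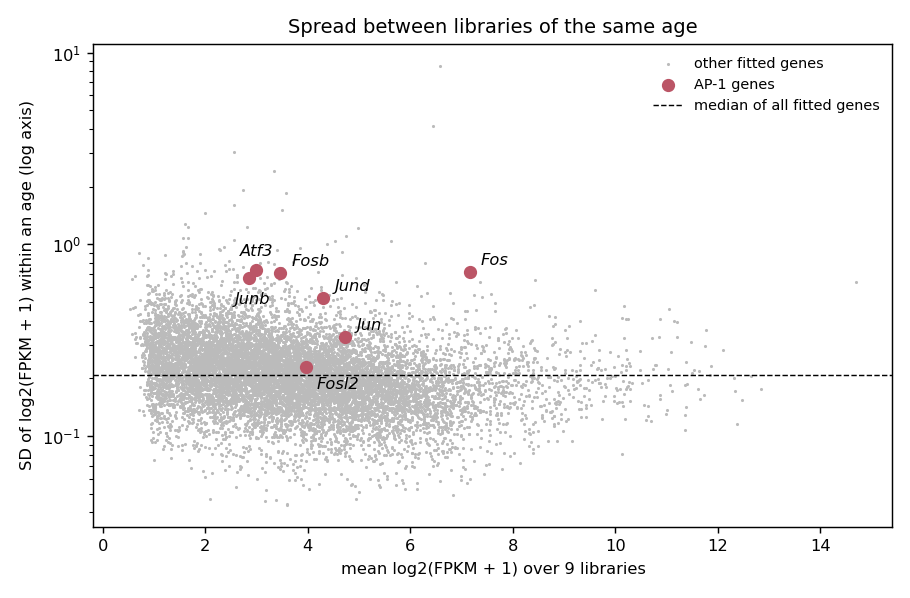
SD of log2(FPKM + 1) between libraries of the same age (y axis, log scale) against mean log2(FPKM + 1) over 9 libraries (x axis) for all fitted genes (grey) and 7 AP-1 genes (red), with the median of all genes at 0.21 as a dashed line. Fos, Fosb, Junb, Jund and Atf3 sit at the upper edge of the genes of their level and Fosl2 near the dashed line.

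Some of the variable members moved together over libraries. Of the 21 pairs, 4 passed an exact two-sided permutation test of Pearson's r over 9 libraries with adjustment over the pairs. Fos with Fosb reached r = 0.86 (exact permutation p = 0.0024, adjusted 0.0168), rho = 0.77 (p = 0.0214, adjusted 0.15) and r = 0.66 without the 2 libraries farthest from the median of Fos. Fosb with Atf3 reached r = 0.86 (exact permutation p = 0.0022, adjusted 0.0168), rho = 0.90 (p = 0.00203, adjusted 0.0213) and r = 0.85 without the 2 farthest libraries. Both pairs are made of stress-induced genes, and 24-month replicate 2 ranked first in all 3 genes. Junb with Jund reached r = 0.89 (exact permutation p = 0.00223, adjusted 0.0168), rho = 0.92 (p = 0.00131, adjusted 0.0213) and r = 0.89 without the 2 farthest libraries. After the GC correction it was 0.89 as well (adjusted exact permutation p = 0.013). Fos with Atf3 reached r = 0.81 (exact permutation p = 0.00904, adjusted 0.0474), rho = 0.67 (p = 0.0589, adjusted 0.2) and r = 0.61 without the 2 farthest libraries.

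With the mean of each age subtracted and libraries permuted within ages, the smallest exact p is 0.00463 and 4 of the 21 pairs passed at an adjusted p of 0.0486. They were Fos with Fosb (r = 0.93), Fosb with Atf3 (0.86), Junb with Jund (0.89) and, with the opposite sign, Fosl2 with Jund (-0.72). Fos with Atf3 kept r = 0.89 (exact permutation p = 0.0139, adjusted 0.0583). Fos with Jun, the classical AP-1 pair, reached r = 0.48 over the 9 libraries (exact permutation p = 0.197, adjusted 0.296) and 0.56 within ages. With the age means kept, Fosl2 had r between -0.32 and 0.33 with the other members. The pairs of Fos with Fosb, Fosb with Atf3 and Junb with Jund thus passed both over all libraries and within ages, and 24-month replicate 2 and 19-month replicate 1 carry high values in both sets.

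**Figure D4:**
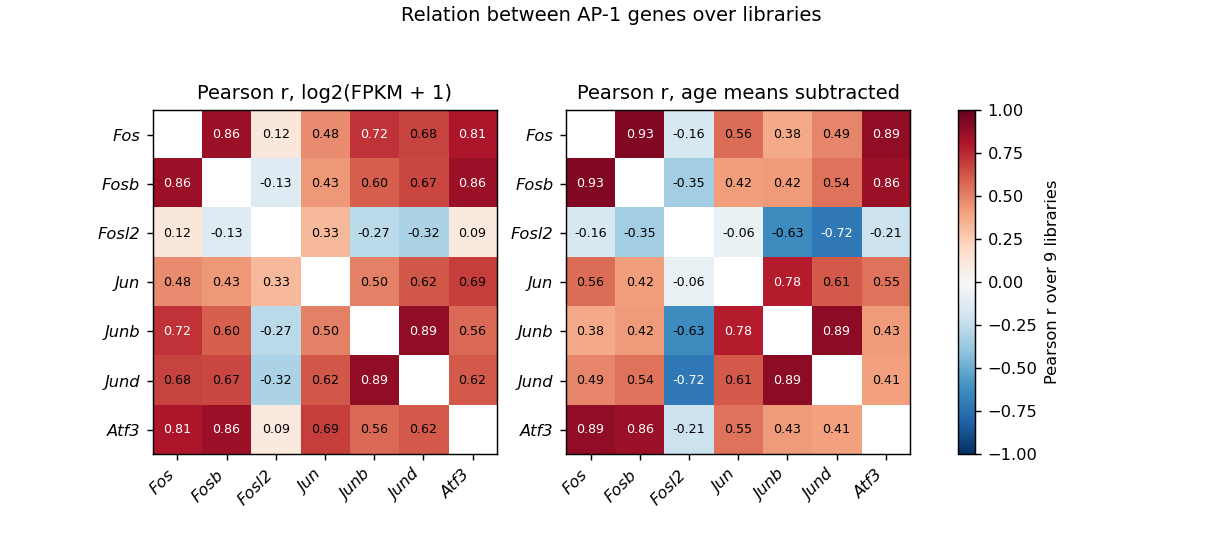
Pearson r between each pair of 7 AP-1 genes over 9 libraries, on log2(FPKM + 1) (left) and with age means subtracted (right), from blue (-1) to red (1). Fos, Fosb and Atf3 form 1 group of high values (0.81 to 0.86 on the left), Junb and Jund a pair at 0.89, and Fosl2 is near or below 0 with most members.

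The genes upstream of AP-1 were tested as 4 lists, with shares of 1.56%, 3.84% and 0.93% called over all genes in the 3 comparisons, so a count of 0 in lists of this size is near the background. The JNK pathway, whose kinases activate Jun, had 0 of 11 tested genes called by limma at any comparison, with 0, 2 and 0 at an unadjusted p under 0.05 at 19 against 3, 24 against 3 and 24 against 19 months. Its most abundant gene, the kinase Map3k1, lay between 86.5 and 108 FPKM in all libraries, and its scaffold Mapk8ip2 between 0 and 0.0235 FPKM. Of 13 tested ERK pathway genes, which relay growth factor signals to Fos, 0 were called (2, 1 and 0 at an unadjusted p under 0.05), with the kinase Araf at 64.9 to 86.2 FPKM and the scaffold Ksr1 at 0.511 to 1.18 FPKM. Of 10 p38 pathway genes, which relay stress signals, 0 were called (0, 2 and 1), with the kinase Map2k3 at 23.1 to 40.6 FPKM and the kinase Rps6ka5 at 0.911 to 1.67 FPKM. The factors that switch on Fos transcription, SRF with its TCF partners and CREB, had 0 of 9 called (0, 0 and 2), with Elk4 at 25.0 to 39.0 FPKM and Elk3 at 0.968 to 2.02 FPKM. These are messages, and the activity of the kinases was not measured.

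Among genes that act on the turnover of AP-1 messages or proteins, 0 of 10 were called by limma (2, 2 and 0 at an unadjusted p under 0.05 in the same order). Over all genes 1.56%, 3.84% and 0.93% were called, so a count of 0 in a list of this size is near the background. Zfp36, or tristetraprolin, which binds AU-rich messages including that of Fos and marks them for decay, was the most abundant, with a lowest, median and highest of 102, 116 and 156 FPKM at 3 months, 108, 113 and 250 at 19 months and 125, 315 and 352 at 24 months. Its log2 difference at 24 against 3 months was 0.97 (limma adjusted p = 0.126). Rfwd2, the ubiquitin ligase also called Cop1 that targets Jun, lay between 2.79 and 4.01 FPKM.

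Other leucine zipper families held 3 called genes. Of 8 tested ATF, BATF and JDP factors, 0 were called by limma at any comparison (1, 5 and 0 at an unadjusted p under 0.05, beside 15.7%, 21.6% and 12.8% of all genes). Their median log2 difference was -0.23 at 24 against 3 months, with 3 of 8 above 0. Atf4, the factor of the integrated stress response, lay between 49.7 and 71.0 FPKM and Batf3 between 0 and 0.123 FPKM. Of 9 Maf, Nrf and Bach factors, Nfe2l1, which controls proteasome genes, fell by 0.56 ± 0.14 on the log2 scale at 24 against 3 months (limma adjusted p = 0.0393, all rows 0.0943), and 6 of 9 fits that left out 1 library lost the call (up to 0.13, without 3-month replicate 2). Maff, a small Maf protein, rose by 1.07 ± 0.24 at 24 against 19 months (limma adjusted p = 0.0499, all rows 0.268), and 7 of 9 such fits lost the call (up to 0.255, without 24-month replicate 4). The most abundant of that list, Nfe2l2, the oxidative stress factor also called Nrf2, lay between 50.2 and 64.2 FPKM, and Mafa between 0 and 0.0381 FPKM. Of 5 tested genes listed as C/EBP factors by symbol, Cebpd, a stress-induced factor, rose from 0.893, 1.89 and 2.38 FPKM at 19 months to 6.52, 7.80 and 10.5 at 24 months. The ages did not overlap, and the log2 change was 1.79 ± 0.27 (limma adjusted p = 0.00618, all rows 0.163), called in all 9 fits that left out 1 library (highest 0.0419). Cebpz, which shares the symbol but is not a leucine zipper protein, lay between 15.0 and 19.9 FPKM. Cebpe was listed at 0 throughout.

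Of the early response genes outside AP-1, some rose at 24 months. Of 26 symbols listed 24 were in the table, and 19 passed the filter. At 24 against 3 months 10 rose, beside 1.5% of all genes, and 0 fell, with a median log2 difference of 0.80 against -0.00 over all genes. They were Egr1, Ier3, Nr4a1, Nr4a2, Klf4, Dusp1, Btg2, Ppp1r15a, Hspa1b and Cyr61. At 24 against 19 months 4 rose (Dusp1, Btg2, Cyr61 and Ctgf), beside 0.712% of all genes, and 0 fell, with a median of 0.68 against -0.02. At 19 against 3 months 0 rose and 1 fell (Ctgf), with a median of 0.13. The fit of all rows called 0 of the 19 at 24 against either age and 1 lower at 19 against 3 months. A robust prior called 8 higher at 24 against 3 months and 4 at 24 against 19 months, and the GC correction 9 and 3. Cyr61 lost both of its calls with the robust prior (limma adjusted p = 0.114 and 0.143). At 24 against 3 months, 5 of 9 fits that left out 1 library also lost the call of Cyr61. With 1 library left out, the count of genes that rose ran from 5 (without 3-month replicates 2 or 3) to 10 at 24 against 3 months, and from 1 (without 19-month replicates 2 or 3, or 24-month replicate 4) to 7 (without 19-month replicate 1) at 24 against 19 months. At 24 against 3 months it was 6 without 24-month replicates 2 or 4, and without the former 1 gene fell.

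Egr1, a zinc finger factor induced through the same SRF route as Fos, held 39.8, 53.8 and 60.3 FPKM at 3 months (in rising order), 64.0, 74.2 and 125 at 19 months and 115, 178 and 192 at 24 months. The 24-month libraries did not overlap those of 3 months, and the log2 change was 1.62 ± 0.24 (limma adjusted p = 0.00337, all rows 0.07). Nr4a2, an orphan nuclear receptor, went from 0.862, 1.49 and 2.60 FPKM at 3 months to 4.61, 4.64 and 5.93 at 24 months, a log2 change of 1.24 ± 0.24 (limma adjusted p = 0.0112, all rows 0.0822). That call was lost without 3-month replicate 2 (0.0515). Ctgf, a matrix protein induced through SRF and YAP, followed a course like that of Jun, with a minimum at 19 months. It held 127, 152 and 157 FPKM at 3 months, 62.7, 63.5 and 76.2 at 19 months and 130, 138 and 172 at 24 months. Its log2 change was -1.10 ± 0.14 at 19 against 3 months (limma adjusted p = 0.00139, all rows 0.037) and 1.11 ± 0.14 at 24 against 19 months (limma adjusted p = 0.00253, all rows 0.0923), and both calls held with each library left out. Klf4, the most abundant of the list by median, held 153 to 183 FPKM at 3 months, 110 to 266 at 19 months and 246 to 388 at 24 months, and lost its call at 24 against 3 months with a robust prior (limma adjusted p = 0.107) and in 6 of 9 fits that left out 1 library (up to 0.117). Dusp2 and Egr4, both with a median of 0, stayed at or below 0.072 and 0.0225 FPKM.

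**Figure D5:**
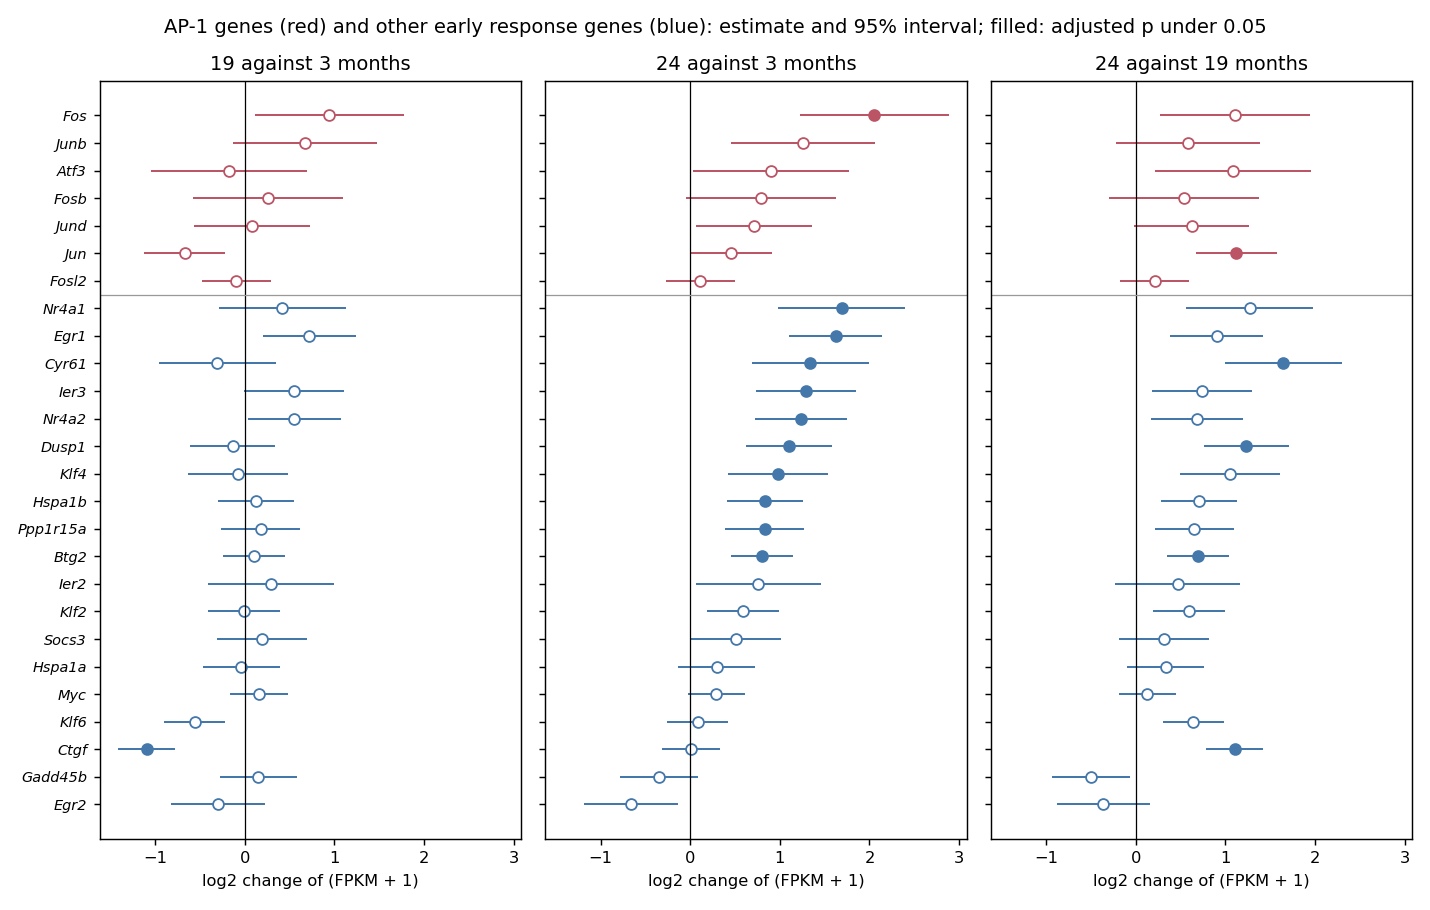
Log2 change of FPKM + 1 (x axis) with its 95% interval for 7 AP-1 genes (red) and 19 other early response genes (blue) in each comparison of ages, filled where the limma adjusted p over protein-coding genes was under 0.05. At 24 against 3 months Fos and 10 early response genes are filled, and at 24 against 19 months Jun and 4 early response genes. None is filled in a fit of all rows except Ctgf at 19 against 3 months.

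Of 25 genes known as AP-1 targets, 13 were tested. At 19 against 3 months 0 rose and 1 fell, at 24 against 3 months 1 rose and 0 fell, and at 24 against 19 months limma called 0 (1 at an unadjusted p under 0.05). The counts are too small to be read against the 1.56%, 3.84% and 0.93% called over all genes. Their median log2 differences were 0.13, 0.14 and -0.01. Ccnd1, the cell cycle gene cyclin D1, had 38.2, 39.2 and 43.1 FPKM at 3 months and 21.0, 25.3 and 29.6 at 19 months, a log2 change of -0.66 ± 0.15 (limma adjusted p = 0.0433, all rows 0.162) that 6 of 9 fits without 1 library lost (up to 0.159, without 3-month replicate 1). Tslp, a cytokine of the skin, went from 2.94, 3.04 and 3.56 FPKM at 3 months to 4.99, 7.16 and 7.52 at 24 months, a log2 change of 0.84 ± 0.18 (limma adjusted p = 0.0162, all rows 0.07), lost without 24-month replicate 4 (0.0811) and without 3-month replicate 2. The collagenase Mmp13, the stromelysin Mmp10 and the cytokine Il6 were listed at 0 in all libraries. Krt6a, a wound keratin and the most abundant of the list, lay between 106 and 208 FPKM.

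Over the 9 libraries, the fitted gene most like Fos on log2(FPKM + 1) was Egr1 (Pearson r = 0.96), followed by Fam83d (0.96) and the gelatinase Mmp2 (0.94). Of all fitted genes, 0.113% had r over 0.9 with Fos. The gene most like Jun was Ptger4, a prostaglandin E2 receptor (0.96), then Coq10b (0.95) and Arid5b (0.93). Fosb was followed most closely by Ddx49 (0.94), Zfp36 (0.93) and Dmap1 (0.93), and Atf3 by the stress keratin Krt16 (0.91), Gtf2h4 (0.90) and Gm14418 (0.88). Junb was closest to Ring1 (0.94), Trim8 (0.93) and Hoxa3 (0.93), Jund to Rabac1 (0.94), Scarf2 (0.93) and Fjx1 (0.92), and Fosl2 to the kinase Rock1 (0.94), with Sp140 also at 0.93. These are the highest of 11509 values over libraries that share ages and normalization, given with no test.

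Markers of other cell types moved between the ages as well. Over all genes, limma called 1.56%, 3.84% and 0.93% at 19 against 3, 24 against 3 and 24 against 19 months. An unadjusted p under 0.05 was reached by 15.7%, 21.6% and 12.8% of all genes in the same order. A count of 0 or 1 in lists this short is too small to be read against these shares. Of 8 sebaceous gland markers, 7 were lower at 19 and at 24 months than at 3 months, with a sum of 65.2 to 86.6 FPKM at 3 months, 21.4 to 30.2 at 19 months and 21.4 to 28.9 at 24 months. Of 2 tested endothelial markers, both (Egfl7 and Ramp2) fell at 24 against 3 months (6 markers summed to 11.8 to 14.2 FPKM at 3 months, 9.67 to 10.7 at 19 months and 5.62 to 7.24 at 24 months, with Emcn at 0 throughout). Those 2 genes made up most of these sums. The endothelial markers Pecam1, Cdh5 and Kdr stayed at or below 0.446, 0.0722 and 0.0912 FPKM in all libraries. Of 5 tested melanocyte markers, Tyrp1 fell at both older ages against 3 months (sums of 37.9 to 46.3, 31.9 to 33.0 and 29.2 to 34.7 FPKM). Of 8 tested immune markers, Fcer1g fell at 19 against 3 months and rose at 24 against 19 months, a course like that of Jun. Most of the list had the same directions, with 0 of 8 above 0 at 19 against 3 months and 7 of 8 at 24 against 19 months. In the 3 comparisons 3, 2 and 5 of the 8 had an unadjusted limma p under 0.05. The sums over 12 markers were 49.3 to 99.7, 41.1 to 76.9 and 57.2 to 90.7 FPKM. Ptprc, the pan-leukocyte marker, lay between 0.0756 and 0.62 FPKM, and Lyz2 was at 0 in all but 1 library. Of 6 tested suprabasal keratinocyte markers and 2 tested fibroblast markers, limma called 0 at any comparison (2, 1 and 1, and 1, 1 and 0, at an unadjusted p under 0.05), with sums of 1991 to 2942, 2398 to 3205 and 2236 to 3954 FPKM and of 5.99 to 8.75, 10.0 to 12.0 and 9.42 to 16.7 FPKM. Among 8 tested bulge markers, Sox9 and Nfatc1 rose at 19 against 3 months and Lgr5 fell at 24 against 3 months. Estimates above 0 were held by 6, 4 and 2 of these 8 in the 3 comparisons, with median log2 differences of 0.22, 0.11 and -0.38. An unadjusted limma p under 0.05 was reached by 4, 3 and 4 of them. In the fits that left out 1 library, the calls of Sox9, Nfatc1, Tyrp1, Egfl7, Elovl3 and, at 19 against 3 months, Fcer1g were each lost at least once, as were those of Scd3 and Mc5r at 24 against 3 months. Without 3-month replicate 2 the count of sebaceous markers lower at 24 against 3 months was 4. The fit of all rows kept, of these marker calls, those of the lipid desaturase Scd1 at both older ages, of Far2 and Mc5r at 19 months and of Ramp2 at 24 months. The part of these shifts in the AP-1 values was not tested.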

How the data were processed

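The authors deposited 1 table of FPKM for 9 libraries, and per the submitters' processing notes TopHat, Cuffdiff and the build NCBIM37 were used. The sources used here give no versions, strand use or order of steps. From these FPKM values, limma (3.58.1, R 4.3.3) with a mean-dependent prior was fitted to log2(FPKM + 1) of all 9 libraries in 1 model. It was run on protein-coding rows (GENCODE M21 by Ensembl identifier) that reached 1 FPKM or more in 3 or more libraries. Of all rows of the table, 36 that were listed at 0 throughout an age while every library of another age reached 5 FPKM were treated as failed estimates and left out. The fit was tested on simulated data. Relations between members used exact permutation tests (scipy 1.17.1).

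The members, gene lists and the choice of protein-coding rows were made with earlier results of these data known, and the protein-coding fit was then already known to call more genes. Named in the text are all members, up to 3 called genes of each list with the lowest adjusted p, the genes of highest and lowest median FPKM in each list other than the cell type markers, and the 3 genes most like each member, of which 1 is not reported here. Other called early response genes, Zfp36, Mmp10, Mmp13 and the genes named from marker lists were added after their values were seen. GC content came from the longest GENCODE protein-coding transcript of each gene. Alternatives were other row sets, filters, pseudocount, scalings, prior, ages in the fit, a replicate block and leaving out each library.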

Additional observations from a re-analysis of the deposited data

Results flagged for a closer look

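The effect of age on Jun against 3 months differed between the older ages. Jun was lower than at 3 months at 19 months (log2 -0.67 ± 0.21, SE) and higher at 24 months (0.45 ± 0.21), neither past the threshold on its own. The difference between these effects is the comparison of 24 with 19 months, a log2 value of 1.12 (limma adjusted p = 0.0224), with all 3 libraries of 24 months above all 3 of 19 months. It was not kept in the fit of all rows (limma adjusted p = 0.227), and 4 of the 9 fits that left out 1 library lost it (up to 0.122, without 24-month replicate 4).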

How the results depend on the processing

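The calls depended mainly on which rows were fitted. With all rows, with all rows less those listed at 0, and with protein-coding rows but no filter on low values, limma called 0 members. This held at each comparison and in the F test. The main fit, of protein-coding rows above the minimum, gave 0, 1, 1 and 2 (19 against 3, 24 against 3, 24 against 19 months, any age). A 5 FPKM filter, a pseudocount of 0.1, quantile or upper quartile scaling and the GC correction gave those same counts. A robust prior called 0 at 24 against 3 months and 1 at any age, and a fit of the 2 ages compared called 2 at 24 against 3 months. Leaving out 1 library gave 0 to 1, 1 to 2, 0 to 2 and 1 to 3 members. Some directions turned with a library left out. At 19 against 3 months Fosb ran from -0.13 to 0.48, Jund from -0.27 to 0.40, Atf3 from -0.56 to 0.34 and Fosl2 from -0.25 to 0.040. At 24 against 3 months Fosl2 ran from -0.040 to 0.25. By rank, 2 of the 21 pairs of members passed in place of 4, and with age means subtracted or the GC correction 4 and 3 passed. Correlations that changed sign were those of Fosb with Fosl2 (0.12 by rank) and, within ages, of Fosl2 with Fos (-0.16), Jun (-0.063) and Atf3 (-0.21). Without the 2 libraries farthest from the median, sign changed for Fosb with Jund (-0.065) and Fosl2 (0.67) and for Fosl2 with Fos (-0.11) and Atf3 (-0.17).

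Deviations from the age means correlated at -0.197 to 0.187 between same-numbered libraries and at -0.230 to 0.164 between differently numbered ones. Such deviations sum to 0 within an age, so this check cannot tell whether the replicate numbers pair the libraries. With the replicate number as a block, limma called 0, 2, 0 and 1 members, and Fosl2 at 24 against 3 months was -0.068. The cause of these differences was not tested. The depth is unknown, so no detection limit can be given for Fosl1.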
